A study of Mus musculus with 6 samples.

Results

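Fabp4, Pparg, Cebpa, Cebpb, Lpl, Scd1, Scd2, Fasn and Cd36 are genes of fat cell formation and of the making, uptake and handling of fatty acids, and their mRNA was followed in primary mouse embryonic fibroblasts on 6 two-colour microarrays. They were found by their gene names on the array, and these 9 genes of the 29742 named there were represented by 16 probes. Mouse embryonic fibroblasts are connective tissue cells grown from minced embryos, here of embryonic day 15 by the sample labels. The cells were wild type, or homozygous for Wrn Δhel (WS in the labels), an allele of the mouse counterpart of the Werner syndrome gene that lacks part of the helicase domain. The labels name no strain, and the study's methods describe a mixed genetic background, in part Black Swiss. Treated cells had received 0.5 mM H2O2 for 1 hour and were harvested after 24 hours in fresh medium, and untreated cells of the same genotype were their controls. Of the 6 arrays, 2 compared treated with untreated wild type cells, 2 compared treated with untreated mutant cells, and 2, here called the direct arrays, compared the untreated genotypes on the same slide. The labels call the replicates biological but do not say whether they came from different embryos.

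Fat cells form from fibroblast-like precursors through a cascade of transcription factors. C/EBPβ, encoded by Cebpb, acts early and helps to switch on Pparg and Cebpa, whose products maintain each other's expression and drive the fat cell programme. PPARγ is a nuclear receptor that binds fatty acids and their derivatives, and the genes for lipoprotein lipase, the fatty acid binding protein FABP4 and the scavenger receptor CD36 are among its known targets. Fatty acid synthase and the stearoyl-CoA desaturases make saturated fatty acids and convert them to monounsaturated ones.

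Pparg and Cebpa gave the largest positive ratios of the untreated genotypes, and the windows around their annotated starts are shown for that reason. Windows of 250 bases before to 50 bases after a start were taken from RefSeq (GRCm38.p6), which gave 7 windows for 5 of the 9 genes (Pparg, Cebpa, Cebpb, Fasn and Cd36). Fabp4, Lpl, Scd1 and Scd2 had none in the table. Pparg has 3 annotated starts, all on the plus strand of chromosome 6, at chr6:115360894-115361193, chr6:115362099-115362398 and chr6:115421816-115422115, and Cebpa has 1, at chr7:35119043-35119342 on the plus strand. The array carried a single probe for Pparg, so transcripts from these starts were not told apart. Capitals mark matches, on either strand, to the TATA box TATAAA, the CCAAT box CCAAT and the C/EBP-type motif TTGCNNAA.
Pparg start 1: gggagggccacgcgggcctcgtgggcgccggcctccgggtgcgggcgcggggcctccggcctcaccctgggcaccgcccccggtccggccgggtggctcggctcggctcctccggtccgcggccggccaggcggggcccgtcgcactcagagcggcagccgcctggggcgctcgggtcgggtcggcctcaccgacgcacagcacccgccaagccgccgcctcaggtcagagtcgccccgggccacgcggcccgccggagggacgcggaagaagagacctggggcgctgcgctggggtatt
Pparg start 2: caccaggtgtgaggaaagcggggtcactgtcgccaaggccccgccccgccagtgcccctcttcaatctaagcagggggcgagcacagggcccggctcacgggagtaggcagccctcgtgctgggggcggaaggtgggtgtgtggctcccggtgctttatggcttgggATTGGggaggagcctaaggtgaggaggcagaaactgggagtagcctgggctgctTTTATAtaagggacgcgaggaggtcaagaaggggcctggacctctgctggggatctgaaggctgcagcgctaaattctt
Pparg start 3: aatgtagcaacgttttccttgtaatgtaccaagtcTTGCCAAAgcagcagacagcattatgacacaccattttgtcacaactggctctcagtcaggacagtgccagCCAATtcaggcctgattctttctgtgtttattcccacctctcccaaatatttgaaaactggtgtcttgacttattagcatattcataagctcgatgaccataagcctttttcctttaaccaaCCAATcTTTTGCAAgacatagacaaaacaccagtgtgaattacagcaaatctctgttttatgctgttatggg
Cebpa: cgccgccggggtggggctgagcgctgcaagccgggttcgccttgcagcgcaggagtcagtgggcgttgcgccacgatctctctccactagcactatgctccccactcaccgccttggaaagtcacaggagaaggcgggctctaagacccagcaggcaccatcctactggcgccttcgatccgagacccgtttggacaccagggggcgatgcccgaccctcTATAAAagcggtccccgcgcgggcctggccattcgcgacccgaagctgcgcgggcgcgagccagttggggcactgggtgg
The window of the third Pparg start held 2 CCAAT boxes and 2 C/EBP-type matches, the second Pparg start 1 TATA box and 1 CCAAT box, and the Cebpa window 1 TATA box. None of these motifs was in the window of the first Pparg start. Of all 32851 windows in the table, 37.4% held a CCAAT box, 13.6% a TATA box and 10.8% a C/EBP-type match. Such matches describe the sequence and were not tested for binding.

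The values are log2 ratios of the Cy5 over the Cy3 signal of a probe on 1 array, after subtraction of the local background and loess normalization within the array. Where a gene had several probes, the probe with the highest mean signal over the 6 arrays represented it. Spots that the scanner software marked as outliers did not count for this choice. Changes were tested with limma over all 6 arrays together, and a gene was called when the Benjamini-Hochberg adjusted p over all probes was under 0.05. On the treatment arrays the treated cells always carried Cy5, so that any dye bias of a probe is part of each treatment ratio. The labels give both direct arrays the same dye order, with no dye swap. Dye and genotype therefore cannot be told apart in the direct ratios and their calls. On the direct arrays the sample labels put wild type cRNA in Cy5, while the list that the study drew from them runs as mutant over wild type, in the direction of Cy5 over Cy3. The direction used here is mutant over wild type and is likely, not settled: by the labels alone, each sign of that comparison would turn. Its basis is the Cy3 channel of the treatment arrays, which held untreated cells of known genotype. Over 16205 probes with a mean log2 signal above 6, the mutant over wild type difference in Cy3 correlated with the Cy5 over Cy3 ratio of the direct arrays with r = 0.73, and 99.3% of the 144 probes called in Cy3 had the same sign. That correlation is across probes, which are not independent replicates.

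The scanner software marked spots as outliers on every array, from 166 of 41534 spots on mutant treatment replicate 1 to 9368 on wild type treatment replicate 2, and such spots were left out. Of the 96 values of the 16 probes on 6 arrays, 21 were lost in this way. Values given below for outlier spots come from a separate normalization that kept them, which also shifts the other spots. Wild type and mutant treatment replicates 2 lost 7 of the 16 member probes each. With 3 residual degrees of freedom at most, precision is set by how few arrays there were. None of the member spots was saturated.

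**Figure D1:**
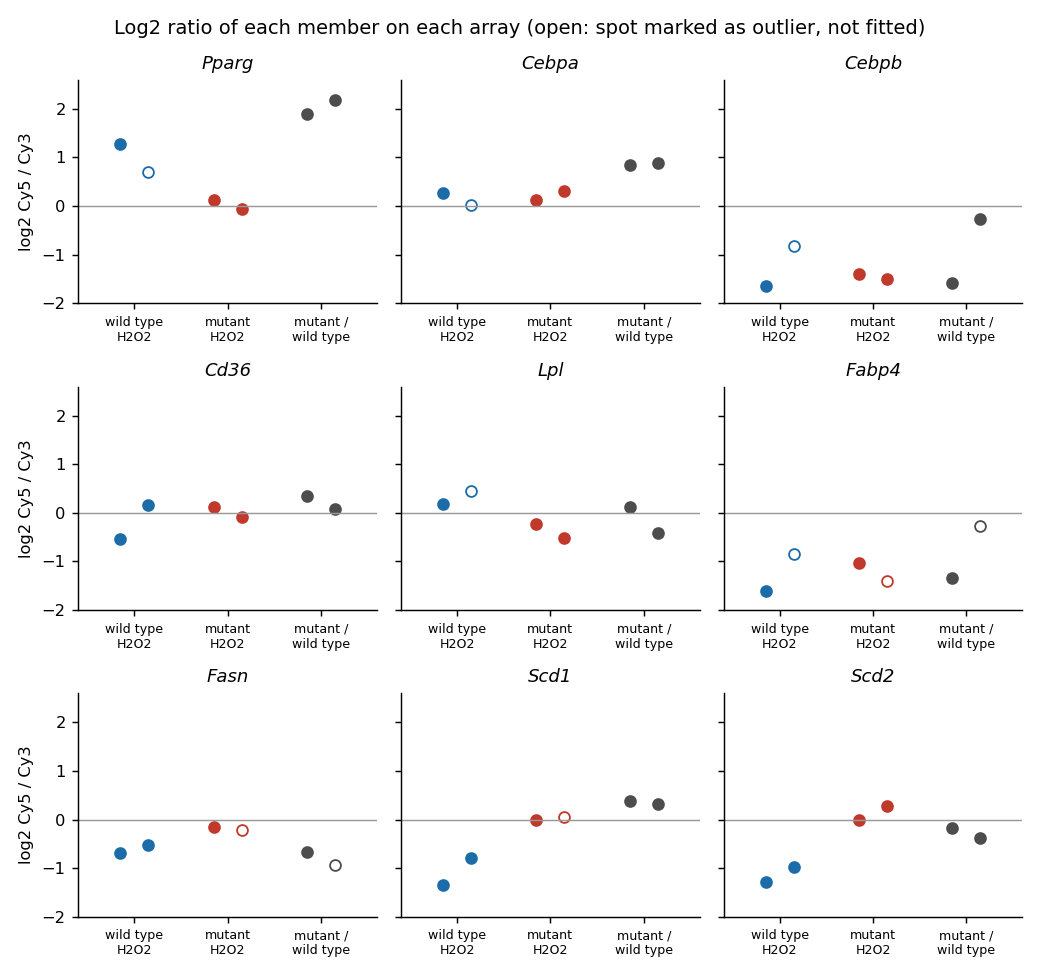
Log2 ratio of Cy5 over Cy3 for the representative probe of each gene, with 1 point per array, for treated over untreated wild type cells, treated over untreated mutant cells and untreated mutant over wild type cells (likely direction). Open points are spots marked as outliers, which were not fitted. Pparg lies at 1.90 and 2.18 on the direct arrays, and Scd1 and Scd2 lie between -1.35 and -0.80 on both wild type treatment arrays and near 0 on the mutant ones.

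Between the untreated genotypes, Pparg and the representative probe of Cebpa were higher in the mutant cells in the likely direction, Pparg alone under every alternative, while Cebpb, Lpl, Cd36, Fasn, Scd1 and Scd2 were not called. On the direct arrays limma called 3 of the 9 genes, 2 higher and 1 lower (33.3%), where it called 19.1% of the 30767 genes tested with 1 probe each. The share called higher among all genes was 10.6% and lower 8.52%. Among probes with a mean log2 signal above 6, it called 4899 of 13369 genes, 2667 higher and 2232 lower. Of the 9 genes only Cd36 lay below that signal, so the share of all genes includes many dimmer ones. At an unadjusted p under 0.05 there were 5 of 9, against 35.2% of all genes. The study's thresholds called Pparg alone, where they called 1.88% of all genes. With direct replicate 4 left out 5 of 9 were called, against 27.9%, and with either mutant treatment array left out or the direct arrays fitted alone only Pparg was, against 8.85% and 4.97%. Without direct replicate 4 each gene rests on 1 direct array, and that fit holds no spread between direct arrays. The median log2 change of the 9 genes was -0.15, and that of all genes 0.03.

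Pparg, the nuclear receptor gene, had log2 ratios of 1.90 and 2.18 on the direct arrays. Both arrays lay far on the same side of 0. The fitted log2 change was 2.04 (SE 0.17), a fold of 4.11 (limma adjusted p = 0.00226). In the Cy3 channel of the treatment arrays, which needs no assumption on the direction, its log2 signal was 8.17 and 8.61 in untreated mutant cells and 7.31 in untreated wild type cells, the second wild type value being an outlier spot at 8.03. Both mutant values thus lay above both wild type values. The fitted Cy3 difference was 1.08 (SE 0.50; unadjusted p = 0.0491) and was not called (adjusted p = 0.489). The direct arrays' call was kept under all 14 alternatives, with log2 changes from 1.61 to 2.32.

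Cebpa, the partner of Pparg in the cascade, had log2 ratios of 0.84 and 0.89 on the direct arrays with its representative probe. The 2 arrays lay close together, and the fitted change of 0.87 (SE 0.16), a fold of 1.82, was called (adjusted p = 0.0186). In Cy3 its log2 signal was 7.63 and 8.10 in untreated mutant cells and 6.90 in untreated wild type cells. The second wild type spot, an outlier, read 7.97, so the genotypes overlapped once it was counted. The Cy3 difference of 0.96 (SE 0.50) was not called (adjusted p = 0.541). The second Cebpa probe went the other way on the direct arrays, with a log2 ratio of -1.08 on the only array where it was not an outlier, and -0.89 on the other. The call of Cebpa was also lost without either mutant treatment array (adjusted p = 0.0641) and with the direct arrays fitted on their own (adjusted p = 0.145).

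Cebpb, the early member of the cascade, had log2 ratios of -1.58 and -0.26 on the direct arrays, which lay far apart. The fitted change of -0.92 (SE 0.31) was not called (adjusted p = 0.0922). With direct replicate 4 left out it was -1.58, from direct replicate 3 alone, with no spread between direct arrays. The other Cebpb probe was marked as an outlier on all 6 arrays, so it could not represent the gene, although it was the brighter one. With those spots kept, its mean log2 Cy3 signal in untreated wild type cells was 10.69, against 8.34 for the representative probe. Its ratios on the direct arrays, with those spots kept, were 0.64 and 0.13.

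Fabp4, which encodes a carrier of fatty acids inside fat cells and macrophages, was the gene called lower on the direct arrays, with a fitted log2 change of -1.35 (SE 0.27; adjusted p = 0.0442). That value came from direct replicate 3 alone, because the probe was an outlier on direct replicate 4, where it read -0.27. With 1 array left per comparison, the spread behind this p came only from limma's pooling over other probes. The other Fabp4 probes did not follow it: they read 0.71 and 0.50, and 0.11 and -0.29, on the direct arrays. In Cy3 the representative probe had a log2 signal of 10.24 in untreated wild type and 10.10 in untreated mutant cells. The call was lost with the outlier spots kept (log2 change -0.78, adjusted p = 0.0936) and without any 1 of the 4 treatment arrays (adjusted p of 0.0664 and 0.0899). Without direct replicate 3 it had no value.

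Lpl, whose product releases fatty acids from circulating triglycerides, had direct log2 ratios of 0.11 and -0.41, on both sides of 0, and was not called (adjusted p = 0.631). Its second probe read -0.85 and -0.05. Cd36, a fatty acid transporter and scavenger receptor, gave weak signals, and its ratios of 0.34 and 0.07 were not called (adjusted p = 0.511). The scanner software put the Cy5 signal well above background on 2 of 6 arrays for the representative Cd36 probe and on 0 of 6 for the other, so no fold is given for this gene.

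Fasn, the fatty acid synthase gene, read -0.67 on direct replicate 3 and, as an outlier spot, -0.93 on replicate 4. The fitted change of -0.67 (SE 0.25) was not called (adjusted p = 0.129), and with outlier spots kept it was -0.75 and called (adjusted p = 0.0212). The second Fasn probe had the same sign, at -0.56 and -0.25 (adjusted p = 0.117). In Cy3 the representative probe had a log2 signal of 11.90 and 11.44 in untreated wild type cells and 10.41 in untreated mutant cells. The mutant value lay below both, and the difference of -1.26 (SE 0.50; unadjusted p = 0.0247) was not called (adjusted p = 0.408). With median centring in place of loess the direct change of Fasn was 0.10.

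Scd1 and Scd2 encode stearoyl-CoA desaturases. Scd1 read 0.38 and 0.32 on the direct arrays and was not called (adjusted p = 0.253). Scd2 read -0.16 and -0.38 and was not called either (adjusted p = 0.296). In Cy3, where none of the 9 genes was called, 2 of 9 passed an unadjusted p of 0.05 in limma, Pparg higher and Fasn lower. Among all genes 0.541% were called in Cy3, and 9.96% passed the unadjusted level.

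**Figure D2:**
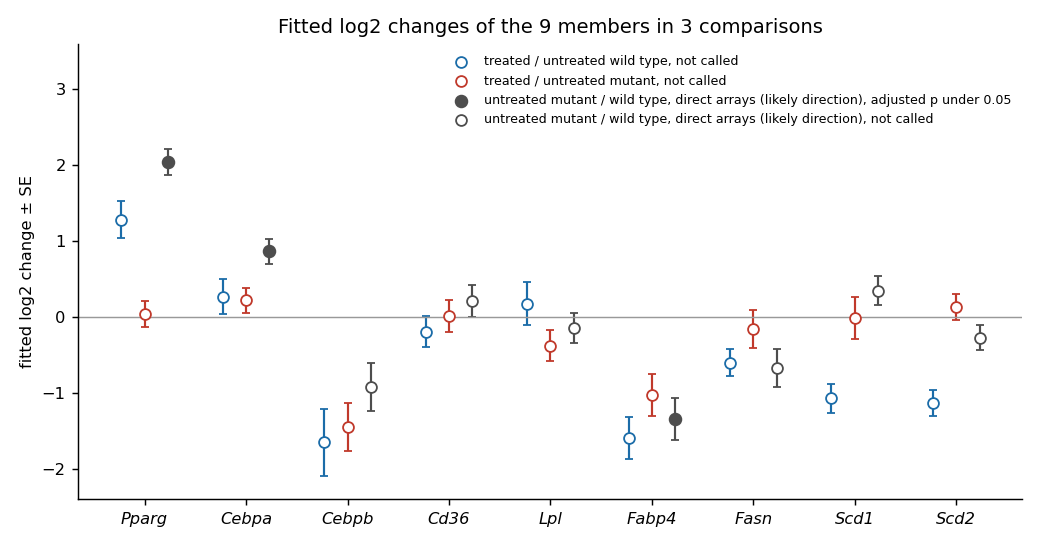
Fitted log2 change with its standard error from limma over 6 arrays, for each gene and the 3 comparisons, with filled points at an adjusted p under 0.05. The filled points are Pparg at 2.04, Cebpa at 0.87 and Fabp4 at -1.35, all on the direct arrays.

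In wild type cells, H2O2 was followed by lower signals of both stearoyl-CoA desaturases and a higher signal of Pparg, none of which passed the adjusted threshold. By limma 0 of the 9 genes were called, where 0.252% of the 30173 genes tested were. At an unadjusted p under 0.05 there were 6 of 9, against 20% of all genes, with 1 higher against 10.7% and 5 lower against 9.34%. The median log2 change of the 9 genes was -0.60, and that of all genes 0.00.

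Scd2 had treated over untreated log2 ratios of -1.29 and -0.97 in wild type cells. Both arrays lay below 0, and the fitted change was -1.13 (SE 0.17; unadjusted p = 0.000306, adjusted p = 0.0521). Scd1 had ratios of -1.35 and -0.80, both below 0, with a fitted change of -1.08 (SE 0.19; adjusted p = 0.0662). Fasn read -0.69 and -0.51 with its representative probe and -0.40 and -0.44 with the other. All 4 values were below 0, and neither probe was called (adjusted p of 0.161 and 0.206). With median centring in place of loess the fitted changes were smaller, -0.55 for Scd2, -0.50 for Scd1 and -0.03 for Fasn.

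Pparg had a ratio of 1.28 on wild type replicate 1 and 0.70, as an outlier spot, on replicate 2. The fitted change of 1.28 (SE 0.24), a fold of 2.43, was not called (adjusted p = 0.0687). Its log2 signal went from 7.31 in untreated to 8.59 in treated wild type cells on replicate 1, against 8.17 and 8.61 in untreated mutant cells. Cebpa read 0.27, and 0.03 as an outlier spot, and was not called (adjusted p = 0.592). The second Cebpa probe went the other way, at -1.14 and, as an outlier spot, -0.07. It was not called, and with only replicate 1 fitted its value holds no spread of its own.

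Cebpb read -1.65 on wild type replicate 1 and -0.82, as an outlier spot, on replicate 2 (fitted adjusted p = 0.119). Fabp4 read -1.60 on replicate 1 and -0.86, as an outlier spot, on replicate 2 (fitted adjusted p = 0.0883). The other probes of both genes gave other values. The second Fabp4 probe read only -0.11 and -0.27 in treated wild type cells, and the third -0.17 and -0.33. The second Cebpb probe, an outlier throughout, read 0.70 and 0.88.

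Lpl read 0.18, and 0.46 as an outlier spot, with its representative probe and -0.01 and -0.10 with the other. Cd36 read -0.55 and 0.16, on both sides of 0. Neither gene was called in treated wild type cells (adjusted p of 0.797 and 0.676). The counts here depended on which arrays shared the estimate of the spread: with the wild type treatment arrays fitted on their own, 6 of the 9 genes were called, 1 higher and 5 lower, where 25% of all genes were. Fabp4, Pparg and Cebpb had only wild type replicate 1 in that fit. The spread behind their calls there came only from limma's pooling over other probes. Leaving out direct replicate 3 or 4 also gave 6 of 9, with 22.8% of all genes called in each case.

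In mutant cells the desaturase ratios after H2O2 were near 0 and Cebpb, Fabp4 and the second probes of Lpl and Cebpa gave the most negative ones. In treated mutant cells limma called 0 of the 9 genes and 0% of the 30714 genes tested. At an unadjusted p under 0.05 there were 2 of 9, against 12.4% of all genes, with 0 higher against 5.97% and 2 lower against 6.4%. The median log2 change of the 9 genes was -0.01, and that of all genes 0.01.

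Scd1 had a ratio of -0.01 on mutant replicate 1 and 0.05, as an outlier spot, on replicate 2 (fitted adjusted p = 0.994). Scd2 read 0.00 and 0.27 (fitted change 0.14, SE 0.17, adjusted p = 0.808). Among spots that were fitted, the desaturase ratios lay between -0.01 and 0.27, and with outlier spots kept Scd2 read 0.39 on replicate 2. Fasn read -0.16 on replicate 1 and, as an outlier spot, -0.20 on replicate 2, with -0.17 and -0.08 for its second probe. With median centring in place of loess the fitted changes in mutant cells were 1.29 for Scd1, 1.11 for Scd2 (adjusted p = 0.0524), 1.15 for Fasn, 0.92 for Cebpa and 0.80 for Pparg, none of them called, so that values near 0 here depend on the loess step.

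Pparg read 0.12 and -0.05 in treated mutant cells, on both sides of 0 (fitted change 0.04, SE 0.17, adjusted p = 0.96). Cebpa read 0.12 and 0.32 (adjusted p = 0.648), and its log2 signal was 7.75 and 8.42 in treated against 7.63 and 8.10 in untreated mutant cells. The second Cebpa probe read -1.08 and, as an outlier spot, -0.98. It was not called, and again a single array was fitted. Cebpb read -1.40 and -1.51, a fitted change of -1.45 (SE 0.31; unadjusted p = 0.00361, adjusted p = 0.253). Fabp4 read -1.03, and -1.41 as an outlier spot, while its second probe read 0.18 and, as an outlier spot, 0.03. Cebpb and Fabp4 were the genes past the unadjusted level. Both were called with the mutant treatment arrays fitted alone, where 10.9% of all genes were. They were also called without direct replicate 3 or 4, where 10.2% were. The fitted Fabp4 value came from mutant replicate 1 alone, so the spread behind its call came only from limma's pooling over other probes.

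Lpl gave its clearest values in treated mutant cells through its second probe, at -1.02 and -1.26. The fitted change of -1.14 (SE 0.21; unadjusted p = 0.00117) was not called (adjusted p = 0.23), and the representative probe of the gene read -0.24 and -0.52. Both Lpl probes were below 0 on both mutant arrays. With median centring the representative probe gave 0.44. Cd36 read 0.12 and -0.10 and was not called (adjusted p = 0.99).

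Whether a gene responded differently in the genotypes was tested as the mutant response minus the wild type response. A dye preference that is the same on all arrays drops out of this difference. By limma 0 of the 9 genes were called and 0% of the 30139 genes tested. At an unadjusted p under 0.05 there were 3 of 9, where 5.8% of all genes were. Scd2 had a difference of 1.27 (SE 0.24; unadjusted p = 0.00122, adjusted p = 0.549), with both mutant ratios above both wild type ratios. Scd1 was fitted on 1 mutant array, the other spot being an outlier, and Pparg on 1 wild type array, so the spread in that arm is assumed to be that of the other arrays. Scd1 had a difference of 1.06 (SE 0.34; unadjusted p = 0.0197, adjusted p = 0.801), with its fitted mutant ratio above both wild type ratios. Pparg had a difference of -1.25 (SE 0.30; unadjusted p = 0.00578, adjusted p = 0.661), with both mutant ratios below its fitted wild type ratio. The second Lpl probe had a difference of -1.08 (SE 0.30; unadjusted p = 0.0094, adjusted p = 0.713). With the direct arrays left out of the fit, which pools the spread over the 4 treatment arrays, Scd2 (adjusted p = 0.0223) and Pparg (adjusted p = 0.0471) were called, where 1.25% of all genes were. Leaving out direct replicate 3 or 4 alone gave the same 2 genes, and the Pparg call again rests on 1 wild type array.

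**Figure D3:**
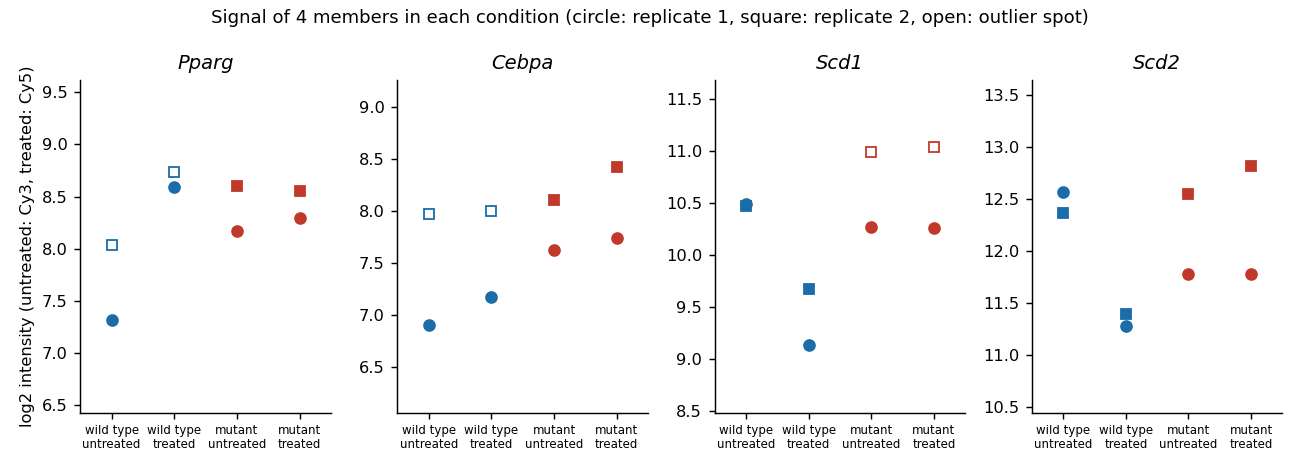
Log2 signal of 4 genes on the treatment arrays, Cy3 for untreated and Cy5 for treated cells, with circles for replicate 1, squares for replicate 2 and open symbols for outlier spots, which come from the normalization that kept them. Each panel spans the same number of log2 units on a scale that does not start at 0. Pparg is at 7.31 in untreated and 8.59 in treated cells on wild type replicate 1 and between 8.17 and 8.61 in mutant cells, and Scd2 is at 12.57 and 12.37 in untreated and at 11.28 and 11.40 in treated wild type cells.

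The treated genotypes can also be set side by side in Cy5. There 0 of the 9 genes were called by limma and 0 passed an unadjusted p of 0.05, against 0.401% and 9.01% of all genes. Pparg differed by -0.17 (SE 0.50), and its log2 signal was 8.59 in treated wild type cells and 8.29 and 8.55 in treated mutant cells. Scd2 had a Cy5 log2 signal of 11.28 and 11.40 in treated wild type and 11.78 and 12.82 in treated mutant cells, which did not overlap, and the difference of 0.96 (SE 0.44; unadjusted p = 0.0519) was not called (adjusted p = 0.56). Cebpa, at 7.17 against 7.75 and 8.42, differed by 0.91 (SE 0.53; adjusted p = 0.662). Fasn differed by -0.81 (SE 0.50; adjusted p = 0.683). The second Lpl probe differed by -1.47 (SE 0.40; unadjusted p = 0.00372) and was not called (adjusted p = 0.244).

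Probes of 1 gene often went different ways. Of the 6 genes with 2 or more probes, 5 had several with a value. On the direct arrays 3 of the 5 had probes of the same sign, and the widest gap, 1.95 on the log2 scale, was that of Fabp4. In treated wild type cells 2 of the 5 had the same sign. The probes of Fasn shared a sign in each of these comparisons. The probes' places in the transcripts were not analysed here, so which of them reads a gene best was not determined.

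**Figure D4:**
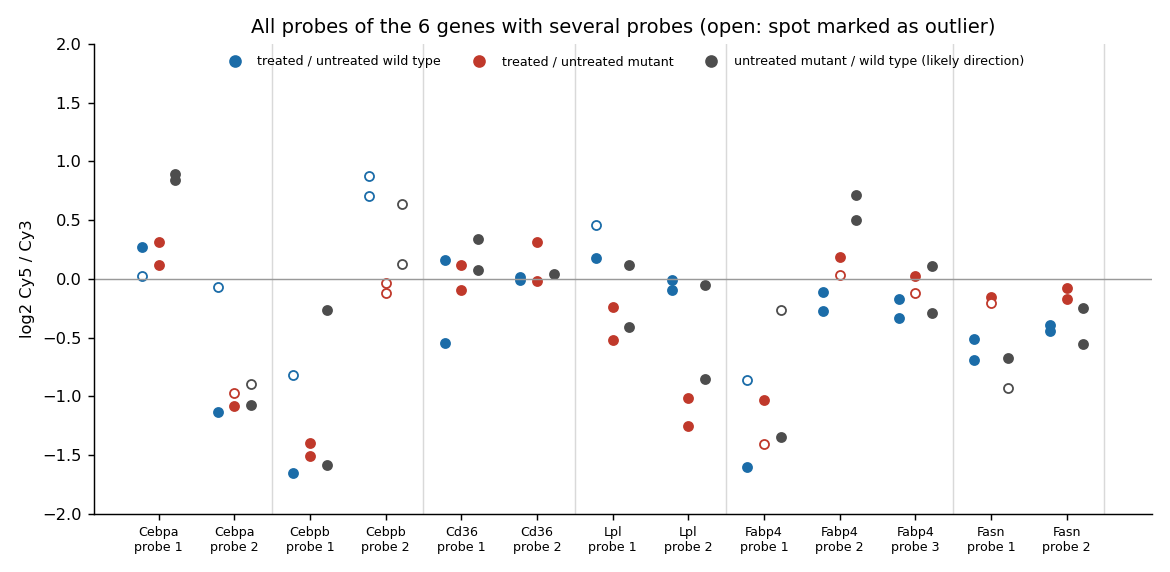
Log2 ratio of Cy5 over Cy3 on each array for all probes of the 6 genes with several probes, coloured by comparison, with open points for spots marked as outliers. Probe 1 of Fabp4 reached -1.60 while its other probes stayed between -0.33 and 0.71. The fitted spots of probe 2 of Cebpa lay near -1.1 and its outlier spots between -0.98 and -0.07, where its probe 1 was above 0.

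The representative probes of Fabp4 and Cebpb, the second Cebpa probe and both Fasn probes were below 0 on all 6 arrays, outlier spots included. The second Lpl probe, which had no outlier spot, was also below 0 on all 6 arrays, from -1.26 to -0.01. In the normalization that kept outlier spots its highest ratio was 0.01. For each probe the Cy5 signal of untreated mutant RNA on the direct arrays, taken in the likely direction, was set against the Cy3 signal of untreated mutant RNA on the treatment arrays, so that the genotype and condition are the same and the dye differs. This difference was -0.91 for Cebpb, -0.87 for the representative Fabp4 probe, -0.57 for the second Lpl probe and -0.38 for the second Cebpa probe. It was 0.87 and 0.19 for the Fasn probes. Over all probes with a mean log2 signal above 6 its median was -0.07, with a 5th percentile of -1.01 and a 95th percentile of 0.57. For Pparg it was 0.24, for Scd1 0.34 and for Scd2 -0.06. By the labels alone, with wild type RNA in Cy5, it would be 1.31 for Pparg, 0.13 for Scd1 and -0.37 for Scd2. It would be -1.18 for Cebpb, -1.01 for Fabp4, -1.11 for the second Cebpa probe and -0.95 for the second Lpl probe. For the Fasn probes it would be -0.39 and -0.37. The arrays and cultures differ as well as the dye, and the part of the dye in the ratios was not tested.

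By the measure fixed for likeness, the root mean square difference of the log2 ratios, the genes most like Pparg were Gas5 at 0.21, Parvb at 0.27 and Cdk18 at 0.28. Pparg was the gene of the 9 with the largest root mean square ratio, 1.42, and the measure was taken over the 5 arrays where it had a value, among 12461 probes. Gas5, a non-coding RNA host gene of small nucleolar RNAs, read 1.40 and 1.17 in treated wild type cells, 0.08 and -0.07 in treated mutant cells, and 1.94 and 1.73 on the direct arrays. These values come from the same arrays as those of Pparg.

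Markers of mature fat cells were not called on the direct or treatment arrays, in Cy3 or for the response difference. All 10 markers of a fat cell list, among them Adipoq, Plin1 and Cfd, were on the array. In Cy3, 7 were well above background on all 4 treatment arrays. The share of all spots well above background in Cy3 was 75.8% to 89.4% per treatment array. With outlier spots kept, their summed Cy3 signal was 527 and 935 in untreated wild type and 530 and 468 in untreated mutant cells. By limma 0 of the 10 were called on the direct arrays (2 at an unadjusted p under 0.05), with a median log2 change of -0.03. Aqp7 and Lipe had the highest mean signals of the list, with direct changes of 0.01 and -0.01. Fibroblast markers, summed over 10 genes, gave 71062 and 62313 in untreated wild type and 93890 and 109218 in untreated mutant cells. Of the 9 tested, 6 were called higher and 0 lower on the direct arrays, with a median log2 change of 1.14, and Vim, Col1a2 and Col1a1 had the highest mean signals. In treated wild type cells, where Scd1, Scd2 and Fasn read below 0, the median of 7 fibroblast markers was -1.04 and 5 of them were lower at an unadjusted p under 0.05, and in treated mutant cells the median of 9 was -0.15. The summed fibroblast signal, outlier spots kept, went the other way in treated wild type cells, at 79776 and 90044, and was 88821 and 107397 in treated mutant cells. The sums of every marker list kept outlier spots. On wild type treatment replicate 2, the source of the second wild type values, 22.6% of all spots were marked as outliers. Macrophage markers summed to 1114 and 1171 in untreated wild type and 1609 and 1227 in untreated mutant cells. Endothelial markers summed to 382 and 1117 against 340 and 315, and skeletal muscle markers to 3609 and 3977 against 4149 and 4192. None of these 3 lists had a called gene on the direct arrays by limma, with 1 of 10, 1 of 8 and 1 of 6 genes at an unadjusted p under 0.05, against 19.1% of all genes called and 35.2% at the unadjusted level. In treated wild type cells the muscle list had a median of -0.63, with 3 of 6 lower at an unadjusted p under 0.05 in limma. In treated mutant cells its median was -0.01, with 1 of 6 lower at that level. Its summed signal was 1995 and 2826 in treated wild type and 2013 and 2079 in treated mutant cells. Sums of treated cells are of Cy5 and those of untreated cells of Cy3, so a dye difference is part of their comparison. Fewer cells of a type and less RNA per cell cannot be told apart in such cultures, and the part of culture make-up in the values of the 9 genes was not tested.

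Beyond the 9 genes, lipid metabolism was described with further lists, in which genes of fatty acid oxidation and lipid storage were mostly higher where they were called on the direct arrays. Lists of 147 genes in 6 groups were written by hand without the 9 genes above, and 143 of them were on the array. On the direct arrays 34 of 142 tested were called higher and 14 lower, where 10.6% and 8.52% of all genes were. Among probes with a mean log2 signal above 6, 2667 of 13369 genes were called higher and 2232 lower. The lists and all genes were not matched for signal, so these shares do not show an excess particular to the lists. In treated wild type cells 1 of 134 was called and in treated mutant cells 0 of 141 by limma, with 31 in each at an unadjusted p under 0.05, where 20% and 12.4% of all genes were. In Cy3 2 of 134 were called, against 0.541% of all genes, and for the response difference 0 of 134 by limma (14 at an unadjusted p under 0.05, against 5.8% of all genes).

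The gene called in treated wild type cells was Vldlr, a receptor for triglyceride-rich lipoproteins, at 2.50 and 2.18 on the wild type arrays (adjusted p = 0.0229). That call was lost with the replicate block, at the study's thresholds and when any 1 treatment array was left out. Vldlr read 0.28 and 0.51 in treated mutant cells and 2.73 and 2.39 on the direct arrays. The genes named next had large changes and were called and alike on both direct arrays. In the uptake list, 6 of 24 were called higher and 2 lower on the direct arrays, among them Vldlr (log2 change 2.56), Cavin1 (1.22) and Fabp3 (1.15) above, and Angptl4 (-2.56), an inhibitor of lipoprotein lipase, below. Fatty acid oxidation and lipolysis had 12 of 30 called higher and 1 lower, with a list median of 0.50 against 0.03 for all genes. Those named are Cpt2 (1.66), a carnitine palmitoyltransferase of mitochondrial oxidation, Ucp2 (1.63) and Eci1 (1.61), and the lower one was Mgll (-1.40), monoacylglycerol lipase. Triglyceride storage had 7 of 23 called higher, among them the lipid droplet genes Plin4 (2.62), Bscl2 (1.68) and Plin2 (1.39), and 1 lower, Cidea (-1.11).

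Fatty acid synthesis had 4 of 24 called higher and 5 lower on the direct arrays. Those above were Acss2 (2.72), which makes acetyl-CoA from acetate, Elovl1 (1.71) and Slc25a1 (1.10), and those below Acly (-1.08), Me1 (-0.97) and Fads3 (-0.87). Acss2 was also called in Cy3, at 2.09 (adjusted p = 0.0317), and its wild type treatment ratios were -1.66 and -1.07 (adjusted p = 0.0521). The adipogenic regulators had 5 of 31 called higher and 5 lower. Dlk1 (1.17), an inhibitor of fat cell formation, Ppard (1.11) and Id2 (1.08) were above, and Insr (-1.15), Irs1 (-0.89) and Klf5 (-0.85) below. Ebf2, a factor of brown fat precursors, was called in Cy3 at 3.85 (adjusted p = 0.00135) and read 2.70 on the direct array where it had a value. Neither Ebf2 nor Acss2 was called in Cy3 with normexp background or the replicate block.

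**Figure D5:**
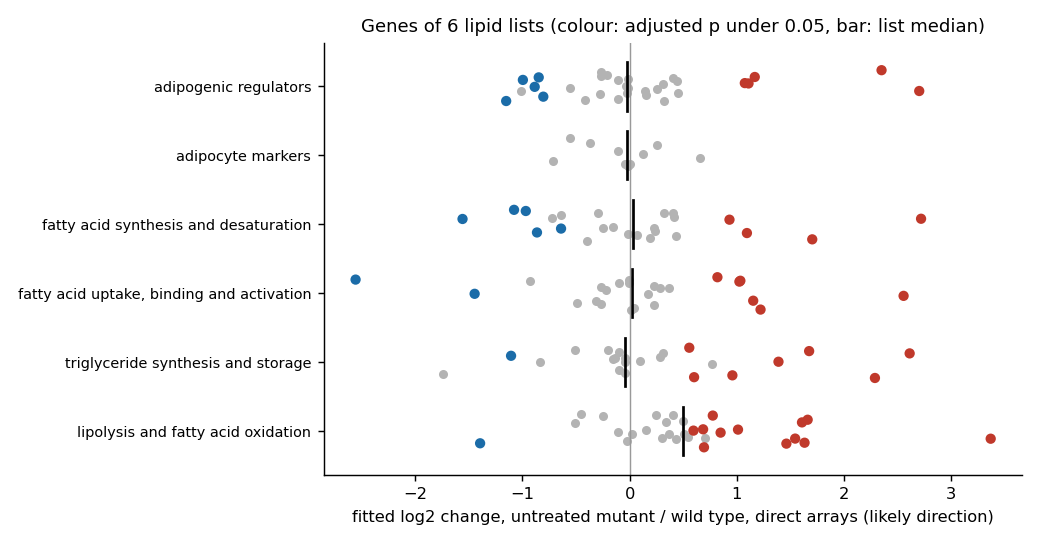
Fitted log2 change of untreated mutant over wild type cells (likely direction) on the direct arrays for each gene of the 6 lipid lists, with coloured points at an adjusted p under 0.05 and a bar at each list's median. The median of the oxidation list lies at 0.50 and those of the other 5 lists between -0.04 and 0.03.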

How the data were processed

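Members and gene lists were chosen with earlier results of these data known. Per the labels, total RNA was used, while the study's methods name cytoplasmic RNA. The authors hybridized labelled cRNA to Agilent 60-mer arrays and deposited the mean and background intensity of each spot per dye, from Feature Extraction 7.5.1 per the file headers. They also deposited its log10 ratio of Cy5 over Cy3 and a series-wide set of log2 ratios, which run as Cy5 over Cy3 and had r of 0.999 or more per array against the ratios made here from all spots. A genome build for the probes is not given in the sources used here. The list columns of the authors' own comparisons were used only for the direction of their header.

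The intensities were turned into log2 ratios in R 4.3.3 by limma 3.58.1 (with the data.table package at version 1.17.8): local background subtraction, loess within arrays, control and outlier spots left out, spots of a probe averaged (41174 probes). The 6 arrays were fitted with lmFit and eBayes, 1 coefficient per comparison. Cy3 signals of the 4 treatment arrays were compared after Aquantile scaling, as were their Cy5 signals. Two-sided p-values, with Benjamini-Hochberg adjustment over all probes tested, rest on the spread between these arrays and on limma's pooling over probes. The representative Fabp4 probe and the second Cebpa probe had 1 fitted array per comparison. Their p-values hold no spread between arrays of the probe itself. The fits were also run on simulated data, with changes planted only in probes that had a value on every array used. Most representative probes lacked a value on some array, and those runs do not cover that case.

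All 9 genes with every probe are named, and from each lipid list up to 3 called genes per direction and comparison with the largest change among those alike on both arrays. A gene that this rule would name is not reported here. Genes were matched to RefSeq symbols. Alternatives covered the background, normalization, outlier spots, arrays in the fit, dim probes, the study's thresholds, each array left out, and a replicate block. Plots used Python 3.11.15, pandas 2.3.3 and matplotlib 3.10.9.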

Additional observations from a re-analysis of the deposited data

How the results depend on the processing

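Of the 581 values that the 9 genes took under the alternatives, 490 kept their direction and their side of the threshold, 14 lost a call, 42 gained one and 35 changed sign; the cause was not tested unless named. The number of genes called in treated wild type cells, 0 as reported, was 6 when each comparison was fitted alone (own arrays), 3 with normexp background, 2 with outlier spots kept, 2 with the series table and 1 among probes of a mean log2 signal above 6. Among all genes these settings called, in that order, 7541 of 30173, 1727 of 30173, 752 of 30817, 762 of 30817 and 388 of 12776. As reported it was 76 of 30173. Own arrays gave 2 in treated mutant cells, against 3357 of 30714 genes, and 2 for the response difference, against 376 of 30139. Some of the calls with own arrays rest on 1 fitted array for the gene, as given above. On the direct arrays, where 3 were called, 1 was with own arrays, 1 at the study's thresholds and 1 with the replicate block, Pparg each time. Of all 30767 genes tested there, the replicate block called 2536, and median centring called 2211 higher and 1057 lower. Of the 9 genes, median centring gave 2 higher and 0 lower there. Leaving out 1 array at a time gave 0 to 6 genes in treated wild type cells, 0 to 2 in treated mutant cells, 1 to 5 on the direct arrays and 0 to 2 for the response difference.

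For the lipid lists, calls in treated wild type cells (1 as reported) were 42 with own arrays, 14 with normexp, 8 with outlier spots kept, 8 with the series table, 6 among probes above 6, 4 with the software's log ratio, and 0 at the study's thresholds and with the replicate block. The lists had 134 genes tested, 143 with outlier spots kept or the series table and 86 above 6. Among all genes the software's log ratio called 433 of 30173 and the replicate block 0, and the other counts are given above. In treated mutant cells (0) list calls were 25 with own arrays and 3 with median centring, against 3357 and 1491 of all 30714 genes. For the response difference (0) list calls were 5 with own arrays, against 376 of all 30139. On the direct arrays (48, 34 of them higher) they were 29 with median centring (27 higher), 24 with the software's log ratio (19 higher), 24 with the replicate block (21 higher), 17 with own arrays (15 higher) and 9 at the study's thresholds (9 higher). Among all genes these settings called, in that order, 3268, 2518, 2536, 1528 and 579 on the direct arrays, against 5870 of 30767 as reported. In Cy3 all genes gave 163 of 30139 as reported, 232 of 30817 with outlier spots kept and 428 of 12742 above 6. They gave 63 with median centring, 106 without the quantile step, 0 with normexp and 14 with the replicate block. List calls in Cy3 (2) were 5 with outlier spots kept, 5 among probes above 6 and 1 with median centring. They were 1 without the quantile step, 1 at the study's thresholds, and 0 with normexp and the replicate block. Leaving out 1 array gave 0 to 39 in treated wild type cells, 0 to 27 in treated mutant cells, 27 to 64 on the direct arrays, 0 to 22 in Cy3 and 0 to 5 for the response difference.

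Signs changed for values that were not called. With median centring, fitted changes were 0.23 for Fabp4, 0.44 for Lpl, 1.29 for Scd1, 1.15 for Fasn and -0.24 for Cd36 in treated mutant cells, 0.10 for Fasn, 0.26 for Lpl and 0.40 for Scd2 on the direct arrays, -0.0709 for Lpl in Cy3 and 0.33 for the Cebpa response difference. With outlier spots kept, Scd1 was 0.0249 in treated mutant cells and 0.63 in Cy3, and the response differences were -0.001 for Fabp4, 0.0808 for Cebpa and -0.22 for Cebpb. The series table gave 0.025 for Scd1 in treated mutant cells, and -0.0009, 0.081 and -0.22 for the same differences. Normexp gave -0.0085 for Pparg in treated mutant cells and -0.0639 for Cd36 in Cy3, and the software's log ratio gave -0.12 for Cd36 in treated mutant cells and -0.03 for the Cebpb response difference. Without the quantile step Lpl was -0.50 in Cy3. Leaving out 1 array gave ranges of -0.55 to 0.16 for Cd36 in treated wild type cells, -0.0525 to 0.12 for Pparg and -0.10 to 0.12 for Cd36 in treated mutant cells, -0.41 to 0.11 for Lpl on the direct arrays, -0.59 to 0.69 for Lpl, -0.35 to 0.40 for Cd36 and -0.69 to 0.0769 for Scd2 in Cy3, and -0.15 to 0.56 for Cd36 and -0.15 to 0.0487 for Cebpa in the response difference.

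Replicate numbers 1 and 2 of the treatment arrays are shared by both genotypes, but nothing in the labels pairs them, and the deviations of the wild type and mutant arrays numbered 1 from their group means correlated with r = 0.10 over probes. With the replicate block, Scd1 was 0.26 in treated mutant cells and Lpl -0.59 in Cy3, and the direct calls of Cebpa (adjusted p = 0.0691) and Fabp4 (adjusted p = 0.0898) were lost. Each array has its own slide, and the scan software processed the treatment arrays together and the direct ones apart, so a slide or scan block could not be fitted and was not run. There were 2 arrays per comparison, and Cy5 was well above background on 41.5% to 69.2% of spots. Modest changes of dim genes such as Cd36 may have been missed, and a detection limit for such genes was not determined.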
